A study of Mus musculus with 25 samples.

Results

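The interferon regulatory factors (IRFs) of mouse group 1 ILCs (G1-ILCs, the innate lymphoid cells that comprise NK cells and ILC1s) are described through 8 genes, Irf1, Irf2, Irf3, Irf4, Irf5, Irf7, Irf8 and Irf9, out of 46078 genes in the count table. The members were taken by name, as the rows whose Ensembl identifier belongs to the listed Irf symbol. No measured value entered this rule, but the list was chosen with earlier results of these data known. All 8 were found, and all 8 passed the filter on low counts that left 14123 genes for testing. RNA was sequenced from 8 sorted populations of untreated wild-type C57BL/6 mice, with 25 libraries in all. They were ILC1s of the small intestinal lamina propria (LPL ILC1s, 4 libraries), G1-ILCs of the salivary gland (SG G1-ILCs, 2) and of the fetal liver (FL G1-ILCs, 4), ILC1s of the adult liver (AL) that carried the IL-7 receptor (7R+ ILC1s, 3) or lacked it (7R- ILC1s, 4), immature ILC1s of the bone marrow (BM iILC1s, 3), BM NK cells (3) and AL NK cells (2). Adult mice were 8 weeks old and fetuses were at E18.5. Every gate was CD3-, NK1.1+ and NKp46+. The CD49a and CD49b levels then separated ILC1s (CD49a+ CD49b low), NK cells (CD49a- CD49b+), FL G1-ILCs (intermediate for both) and SG G1-ILCs (positive for both), while LPL ILC1s were taken as CD27+ IL-7R+ cells with no CD49a or CD49b gate.

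All IRFs share an N-terminal DNA-binding domain that recognises GAAA repeats. Some are activated by phosphorylation when pattern recognition receptors sense nucleic acids and then switch on interferon genes, others carry the response to interferon itself, and IRF4 and IRF8 act mainly as lineage factors of lymphoid and myeloid cells together with partners such as PU.1, BATF and JUN proteins. In G1-ILCs, which make IFN-γ, the family is known for the control of NK cell maturation by IRF2 and IRF8 and for the induction of IRF1 by IFN-γ.

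Libraries held 2302643 to 7995906 counts, with a median of 4603579. FL G1-ILC replicates 2 and 3 differed by less than other replicate pairs (their chi-square was 1.18 per degree of freedom, and 3.51 to 12.4 in the 28 other pairs) and were summed and counted as 1 sample, which leaves 24 samples and n = 3 for FL G1-ILCs. The study counts each library as a biological replicate, whereas the labels do not say that the replicates came from separate mice, so the p-values measure only the spread between these libraries, which may be technical. Levels are normalized read counts (CPM, scaled to a common library size with TMM factors), given with the SD over samples, and log2 fold changes and their standard errors (SE) come from 1 edgeR fit of all samples. Here "edgeR adjusted p" is that of edgeR's quasi-likelihood test with Benjamini-Hochberg adjustment over the 14123 genes, "called" means that it lay under 0.05, and intervals are 95% intervals of a log2 fold change. Summed markers of G1-ILCs reached 8298 to 8844 CPM in FL G1-ILCs and 12474 to 13488 CPM in AL NK cells, which were the groups with the lowest and the highest mean sum. The 7 NK cell markers summed to 61.5 to 73.7 CPM in 7R+ ILC1s and 44.3 to 71.03 CPM in 7R- ILC1s, against 5116 to 5336 CPM in AL NK cells. The 6 ILC1 markers summed to 2276 to 2443 CPM in 7R+ ILC1s and 2083 to 2529 CPM in 7R- ILC1s, against 38.6 to 42.8 CPM in AL NK cells. SG G1-ILCs held both, with NK cell markers at 2011 to 2111 CPM and ILC1 markers at 891 to 1012 CPM.

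The gut and salivary gland cells were released by collagenase digestion, whereas livers were dissociated mechanically and marrow was flushed. A list of 10 immediate-early and heat shock genes, all with counts in every group, summed to 19485 to 23932 CPM in LPL ILC1s and 15125 to 16610.0 CPM in SG G1-ILCs, against 418 to 489 CPM in 7R+ ILC1s and 707 to 996 CPM in AL NK cells. In those 2 tissues the tissue and its preparation cannot be told apart, and the part of these genes in the LPL and SG results was not tested. Markers of other cells also differed. SG G1-ILCs carried the macrophage genes Cd14 (269 CPM), C1qb (186 CPM) and Csf1r (134 CPM), which each averaged at most 2.03 CPM in LPL ILC1s. BM iILC1s carried the granulocyte precursor genes Mpo (245 CPM) and Elane (72.2 CPM) and the T cell gene Cd3e (147 CPM). Clec9a of type 1 conventional dendritic cells averaged at most 0.279 CPM in any group. In bulk samples such as these, fewer cells of a type and less RNA per cell cannot be told apart.

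All 8 Irf genes differed among the 8 groups, where 77.7% of the 14123 genes tested did. The order of their F values was Irf8 (F = 262), Irf7 (73.9), Irf5 (41.6), Irf1 (29.5), Irf2 (17.4), Irf4 (11.8), Irf3 (9.57) and Irf9 (5.04, edgeR adjusted p = 0.00190). Irf8 ranked 119th of the 14123 genes by F and Irf9 ranked 8082nd. The highest group mean was 45.1 times the lowest for Irf4, 13.2 times for Irf8, 7.71 times for Irf7 and 5.79 times for Irf5, but only 2.45 times for Irf2, 1.87 times for Irf1 and 1.64 times for Irf3 and Irf9. The family therefore held 4 genes whose level moved widely between subsets and 4 whose level stayed within a narrow range. Some reads may be shared with neighbouring genes, since 135 exon bases of Irf1, 88 of Irf3, 45 of Irf7 and 123 of Irf9 lie in exons of another gene. For Irf1, Irf3 and Irf7 that gene is on the opposite strand, and whether the counting used strand is not given in the sources used here. For Irf9 it is Rnf31 on the same strand, so strand could not separate those reads.

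**Figure D1:**
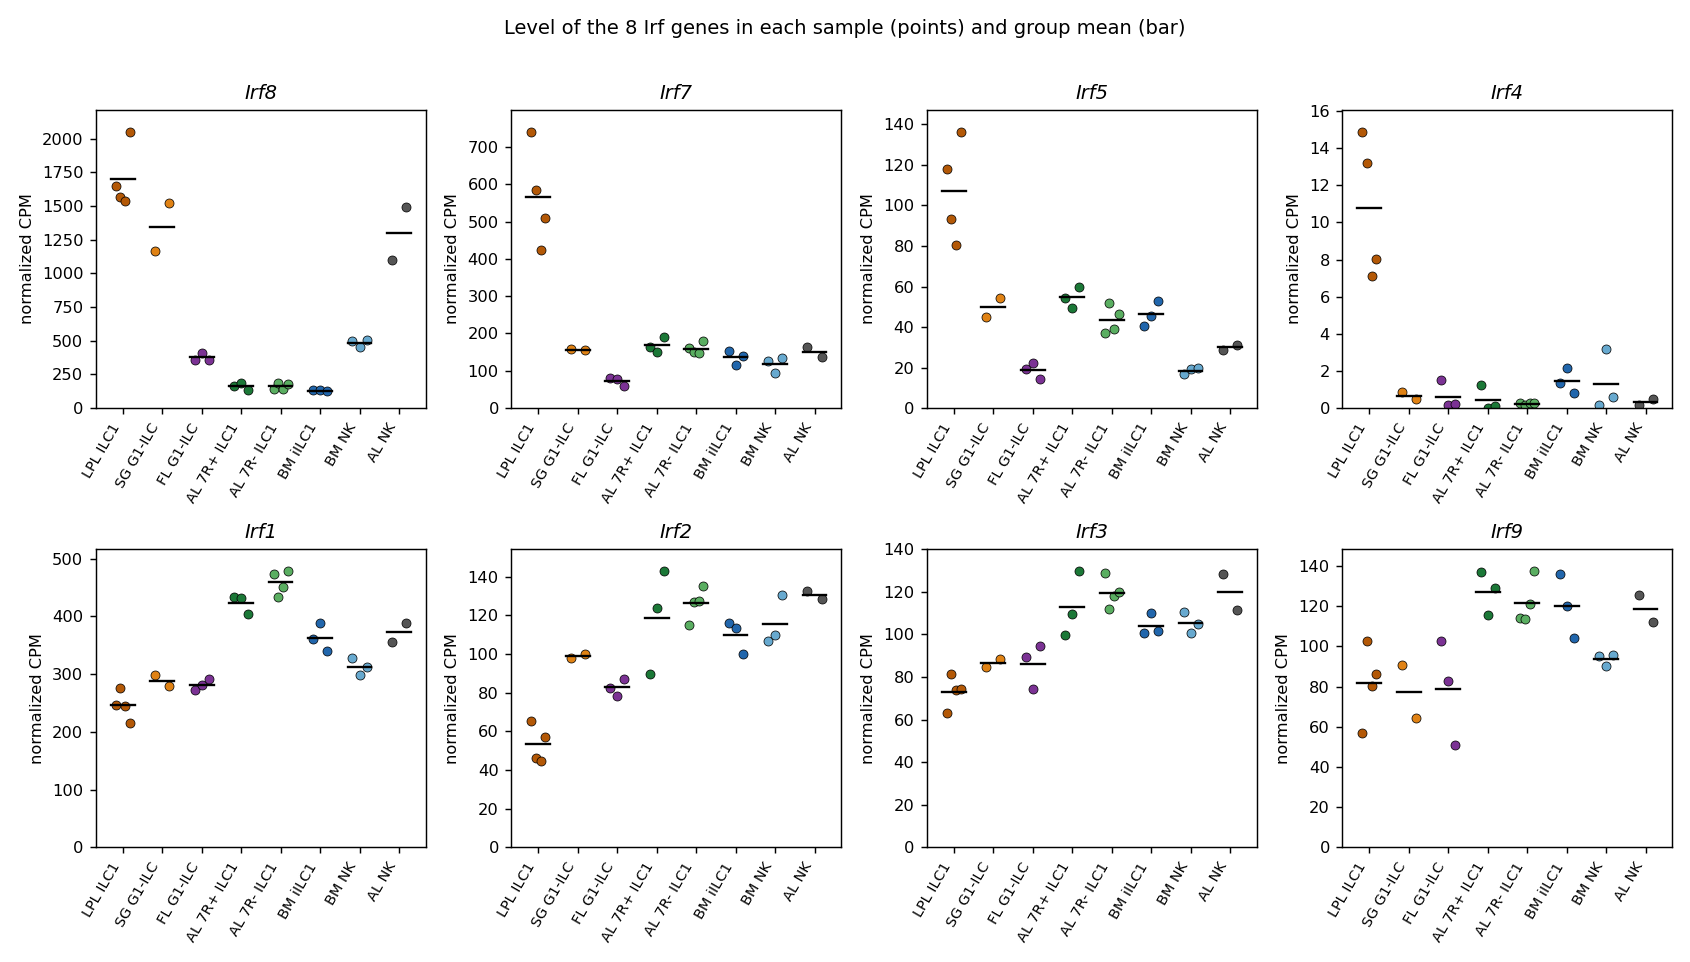
Level of each Irf gene in normalized CPM (y axis, linear, from 0) in the 24 samples (points) of the 8 groups, with group means as bars. Irf8 sits at 1103 CPM or above in LPL ILC1s, SG G1-ILCs and AL NK cells and between 124 and 187 CPM in AL ILC1s and BM iILC1s, while Irf7, Irf5 and Irf4 are highest in LPL ILC1s and Irf1 is highest in AL ILC1s.

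The 8 genes together reached 2839 ± 274 CPM in LPL ILC1s, 2106 ± 228 CPM in SG G1-ILCs and 2219 ± 257 CPM in AL NK cells, and 998 ± 35.4 to 1252 ± 73.95 CPM in the other 5 groups. To compare genes with each other, levels were divided by the merged exon length of each gene (CPM per kb). Irf7 needs care on this scale, because its annotated exons merge into 1 block of 3776 bases that spans the whole gene. On the per-kb scale Irf8 made up 45.1 ± 4.59% of the family sum in LPL ILC1s, 50.7 ± 5.23% in SG G1-ILCs and 45.4 ± 5.70% in AL NK cells. It made up only 8.64 ± 1.48% in 7R+ ILC1s, 8.54 ± 1.11% in 7R- ILC1s and 7.97 ± 0.0493% in BM iILC1s. In those ILC1s the leading member was Irf1, with 40.1 ± 2.55% of the family sum in 7R+ ILC1s, 42.7 ± 1.36% in 7R- ILC1s and 39.8 ± 1.88% in BM iILC1s, against 23.3 ± 0.512% in AL NK cells. FL G1-ILCs and BM NK cells lay between, with Irf8 at 26.5 ± 1.66% in FL G1-ILCs and 27.6 ± 0.00519% in BM NK cells. Irf1 led in both of these groups too, with 35.3 ± 2.3% in FL G1-ILCs and 31.6 ± 1.12% in BM NK cells. Irf7 took 27.8 ± 4.95% of the sum in LPL ILC1s and 9.64% to 16.8% elsewhere, and Irf4 never averaged above 0.409%.

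**Figure D2:**
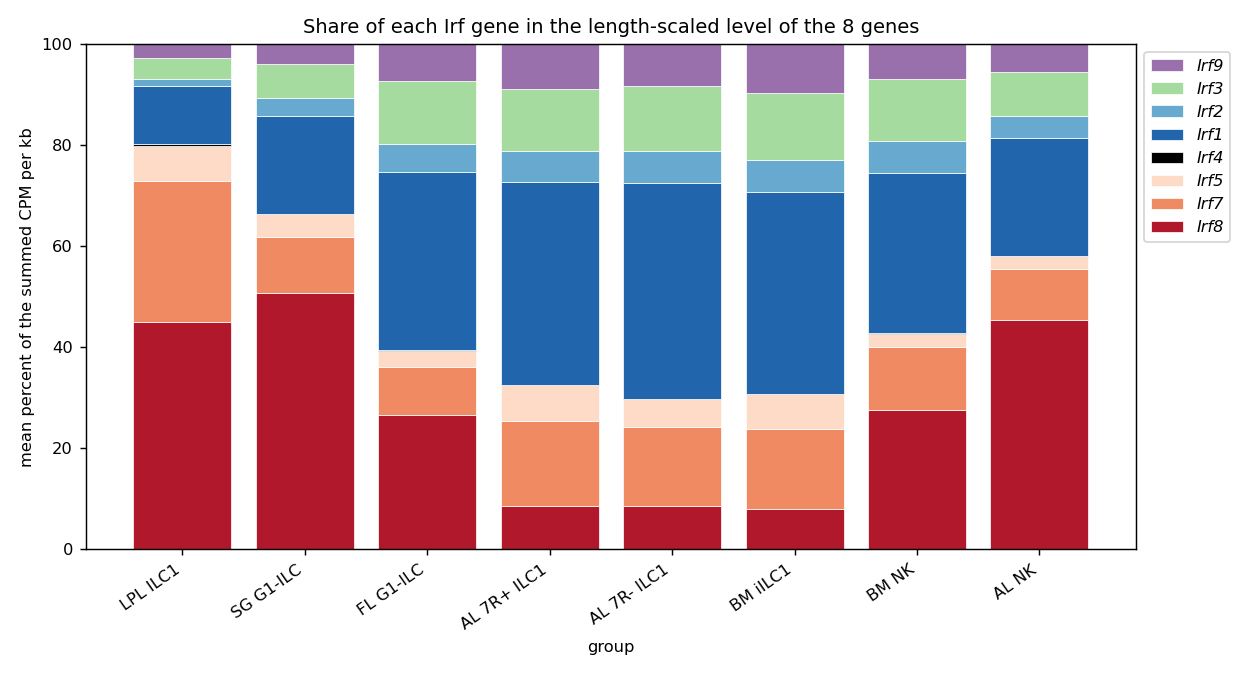
Mean percent of the summed CPM per kb of the 8 genes (y axis) taken by each Irf gene (colours) in the 8 groups. Irf8 takes 45.1% in LPL ILC1s, 50.7% in SG G1-ILCs and 45.4% in AL NK cells but 7.97% to 8.64% in BM iILC1s and AL ILC1s, where Irf1 takes the largest share. Irf1 also takes the largest share in FL G1-ILCs and BM NK cells.

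The promoters of 3 members are printed because these are the members in which the searched letters were found. RefSeq windows of GRCm38.p6 from 250 bases before to 50 bases after an annotated start were available for all 8 genes, in 11 windows. Both strands were searched for TTCNNNGAA, the gamma-activated sequence (GAS) of the IFN-γ response, and for GAAA followed by any 2 bases and a second GAAA, the core of the interferon-stimulated response element (ISRE) that IRFs and ISGF3 bind. TTCNNNGAA occurred in 8.30% of all 32851 promoter windows and in 3 of the 8 members, and the ISRE core occurred in 3.44% of windows and in 1 member. The percentages are per window, whereas a member was counted if any of its windows matched, so the 2 scales are not alike. Irf1 (chr11:53769764-53770063, plus strand) held 1 GAS match starting 90 bases before its start. Irf2 (chr8:46739495-46739794, plus strand) held 1 ISRE match at 241 bases and 1 GAS match at 224 bases before the start. Irf8 (chr8:120736108-120736407, plus strand) held GAS matches at 171 and 153 bases before the start. Capitals mark the matches, which are a description of the letters and not shown sites of binding.
Irf1 promoter: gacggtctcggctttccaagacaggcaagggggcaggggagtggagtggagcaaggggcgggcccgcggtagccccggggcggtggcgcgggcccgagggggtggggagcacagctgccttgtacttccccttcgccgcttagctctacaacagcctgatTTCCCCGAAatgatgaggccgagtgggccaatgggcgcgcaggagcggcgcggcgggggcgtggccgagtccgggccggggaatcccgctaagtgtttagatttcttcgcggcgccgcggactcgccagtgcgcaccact
Irf2 promoter: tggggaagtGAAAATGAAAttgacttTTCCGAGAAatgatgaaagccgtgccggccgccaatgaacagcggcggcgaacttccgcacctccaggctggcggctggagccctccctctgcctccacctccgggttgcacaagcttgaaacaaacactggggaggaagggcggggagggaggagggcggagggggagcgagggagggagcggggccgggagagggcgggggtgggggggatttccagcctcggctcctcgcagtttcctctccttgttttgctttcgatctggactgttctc
Irf8 promoter: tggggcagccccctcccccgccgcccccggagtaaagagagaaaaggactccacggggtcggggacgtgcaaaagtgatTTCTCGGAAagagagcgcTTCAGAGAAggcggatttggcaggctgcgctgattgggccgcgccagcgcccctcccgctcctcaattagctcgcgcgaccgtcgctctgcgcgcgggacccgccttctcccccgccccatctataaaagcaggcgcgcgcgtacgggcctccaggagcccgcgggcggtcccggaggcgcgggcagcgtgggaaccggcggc

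Irf8 (ENSMUSG00000041515, chr8:120736358-120756694, plus strand, GRCm38) encodes a factor that directs dendritic cell and monocyte development and, in mouse NK cells, takes part in the antiviral response. It was the most variable member. Its level was 1651, 1569, 1539 and 2049.8 CPM in the 4 samples of LPL ILC1s and 1169.5 and 1524 CPM in the 2 of SG G1-ILCs, and 1103 and 1490.5 CPM in those of AL NK cells. 7R+ ILC1s had 166, 183 and 135 CPM and 7R- ILC1s had 143, 187, 145 and 176 CPM. BM iILC1s had 131, 131 and 124 CPM, FL G1-ILCs had 360.4, 409 and 359 CPM and BM NK cells had 501, 453 and 505 CPM. Every sample of the gut, gland and AL NK groups was above every sample of the other 5 groups, and the 10 samples of AL ILC1s and BM iILC1s were the lowest of all.

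Irf8 was 8.06-fold lower in 7R+ ILC1s than in AL NK cells (log2 fold change -3.01, SE 0.15, edgeR adjusted p = 2.03e-14) and 7.96-fold lower in 7R- ILC1s (log2 fold change -2.99, SE 0.13, edgeR adjusted p = 2.16e-15). Between 7R+ and 7R- ILC1s the log2 difference was -0.02, with an interval of -0.28 to 0.24. In FL G1-ILCs Irf8 averaged 376 ± 28.7 CPM, against 163 ± 22.1 CPM in 7R- ILC1s, and was 2.31-fold higher (log2 fold change 1.21, SE 0.12, edgeR adjusted p = 9.91e-09). The fetal cells were still below AL NK cells (log2 fold change -1.78, SE 0.14, edgeR adjusted p = 2.94e-10). Myeloid markers summed to 286 to 527 CPM in FL G1-ILCs and 87.3 to 107 CPM in 7R- ILC1s. NK cell markers summed to 133 to 180 CPM and 44.3 to 71.03 CPM in these groups. Conventional dendritic cell markers were lower in the fetal cells (83.8 to 147 and 524 to 623 CPM), as were plasmacytoid ones (63.8 to 75.2 and 84.1 to 113 CPM). The part of these markers in the Irf8 difference was not tested. LPL ILC1s, which were also sorted as IL-7R+, had 10.6-fold more Irf8 than 7R+ ILC1s (log2 fold change 3.40, SE 0.14, edgeR adjusted p = 6.99e-17). The NK cell markers summed to 343 to 491 CPM in LPL ILC1s, against 61.5 to 73.7 CPM in 7R+ ILC1s. The ILC1 markers summed to 2724 to 3951.5 CPM in LPL ILC1s, against 2276 to 2443 CPM in 7R+ ILC1s. The part of these markers in the Irf8 level was not tested. The difference between LPL ILC1s and AL NK cells was small (log2 fold change 0.39, SE 0.14, edgeR adjusted p = 0.0228) and was not called without AL NK replicate 1 (0.16, edgeR adjusted p = 0.498), without LPL ILC1 replicate 4 (0.30, edgeR adjusted p = 0.0788) or without the filter on low counts (0.23, edgeR adjusted p = 0.216). SG G1-ILCs and AL NK cells were not distinguishable (log2 fold change 0.06, SE 0.16, edgeR adjusted p = 0.844, interval -0.27 to 0.38).

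In the order of means, Irf8 ran from LPL ILC1s over SG G1-ILCs to AL NK cells without a called step between neighbours, then BM NK cells below AL NK cells, FL G1-ILCs below BM NK cells (log2 -0.37, edgeR adjusted p = 0.0306) and 7R- ILC1s below FL G1-ILCs. No step among 7R- ILC1s, 7R+ ILC1s and BM iILC1s was called, although the samples of 7R+ ILC1s and BM iILC1s did not overlap. Irf8 was called in 23 of the 28 pairs of groups, more than any other member, where the median share of called genes over the pairs was 32%. Beside the high levels in LPL ILC1s and SG G1-ILCs stand the immediate-early sums given above, and their part in the result was not tested. The 9 dendritic cell markers summed to 610.3 to 767 CPM in LPL ILC1s, 1843 to 1958 CPM in SG G1-ILCs, 524 to 623 CPM in 7R- ILC1s and 241 to 257 CPM in AL NK cells. Clec9a stayed at or below 0.279 CPM in all of these groups, whereas Zbtb46 reached 225 CPM in LPL ILC1s and H2-Ab1 552 CPM in SG G1-ILCs. The part of these markers in the Irf8 level was not tested.

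In the marrow, Irf8 was again lower in ILC1s than in NK cells. It averaged 129 ± 3.82 CPM in BM iILC1s and 486 ± 29.1 CPM in BM NK cells (log2 fold change -1.92, SE 0.14, edgeR adjusted p = 5.62e-11), and the groups did not overlap. BM NK cells in turn had 2.67-fold less Irf8 than AL NK cells (log2 fold change -1.42, SE 0.14, edgeR adjusted p = 9.34e-07). The ILC1 to NK cell difference was therefore smaller in marrow (log2 -1.92) than in liver (log2 -3.01 for 7R+ ILC1s), and the difference between them was itself tested. This contrast was chosen after seeing the data, so its p-value describes values that had already been seen. It was 1.10 on the log2 scale (SE 0.20, interval 0.69 to 1.5, edgeR adjusted p = 0.00104), where 3.09% of the genes tested were called. No other Irf gene was called in this test, and the next by p was Irf5 with 0.46 (edgeR adjusted p = 0.594). BM iILC1s held 15 of 15 myeloid markers with a sum of 781 to 2018 CPM, against 208 to 481 CPM in BM NK cells and 585 to 670.1 CPM in AL NK cells. The NK cell markers summed to 612 to 806 CPM in BM iILC1s, against 61.5 to 73.7 CPM in 7R+ ILC1s and 4085.5 to 4390 CPM in BM NK cells. The ILC1 markers summed to 1878 to 2114 CPM in BM iILC1s and 26.1 to 30.2 CPM in BM NK cells. The part of all these markers was not tested.

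Irf4 (ENSMUSG00000021356, chr13:30749226-30766976, plus strand) encodes a factor that antigen receptor and cytokine signals induce in lymphocytes and that plasma cells and effector T cells need. Most of its reads came from the gut samples. LPL ILC1s had 51, 46, 28 and 29 reads, or 14.9, 13.2, 7.12 and 8.03 CPM. The other groups had 3 and 2 reads in SG G1-ILCs, 8, 1 and 1 in FL G1-ILCs, 6, 0 and 1 in 7R+ ILC1s, 1, 1, 2 and 1 in 7R- ILC1s and 7, 11 and 4 in BM iILC1s. BM NK cells had 1, 18 and 3 reads and AL NK cells 1 and 2. Each LPL sample exceeded every other sample, the closest being 1 BM NK sample with 18 reads.

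With so few reads, ratios of pooled CPM are given with exact intervals that cover counting error only. Irf4 in LPL ILC1s was 27.5 times (95% interval 13 to 69.5) the level of 7R+ ILC1s and 44.4 times (18.6 to 139) that of 7R- ILC1s. The ratio was 34.5 (11.6 to 169) against AL NK cells, 16.0 (6.70 to 49.9) against SG G1-ILCs and 18.0 (9.50 to 38.2) against FL G1-ILCs. It was smallest against BM iILC1s, at 7.35 (4.69 to 12.1), and BM NK cells, at 8.03 (5.12 to 13.2). LPL ILC1s differed from each of the other 7 groups, from the largest fitted change against 7R- ILC1s (log2 fold change 5.35, SE 0.88, edgeR adjusted p = 1.11e-05) to the smallest against BM iILC1s (log2 fold change 2.88, SE 0.80, edgeR adjusted p = 0.00404), and no other pair of groups was called. Even in the gut Irf4 was a minor member, at 0.409 ± 0.127% of the per-kb family sum. Beside it, the plasma cell genes Jchain and Sdc1 averaged 5.68 CPM and 2.07 CPM in LPL ILC1s, the 7 ILC2 markers summed to 1958 to 2418 CPM (Rora 1743 CPM, with Il5 and Il13 at most 0.352 CPM) and the 9 T cell markers to 442 to 519 CPM, against 111 to 114 CPM in 7R+ ILC1s. The ILC3 cytokine Il22 was at 156, 192, 22.9 and 53.2 CPM in LPL replicates 1 to 4, and replicates 1 and 2 had more of both Il22 and Irf4 than replicates 3 and 4. The part of these markers in the Irf4 level was not tested.

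Irf7 (ENSMUSG00000025498, chr7:141262706-141266481, minus strand) encodes the factor that amplifies type I interferon production and is itself induced by interferon through ISGF3. LPL ILC1s had 740.4, 586, 425 and 509.7 CPM. SG G1-ILCs had 158 and 155 CPM, 7R+ ILC1s 164, 151 and 192 CPM, 7R- ILC1s 162, 149, 147 and 179 CPM and AL NK cells 164 and 138 CPM. BM iILC1s had 154, 116 and 139 CPM and BM NK cells 126, 92.96 and 135 CPM, and FL G1-ILCs had 80.5, 79.1 and 60.4 CPM. LPL ILC1s lay above and FL G1-ILCs below all other samples, with the remaining 6 groups between 93.0 and 192 CPM.

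Irf7 was 3.34-fold higher in LPL ILC1s than in 7R+ ILC1s (log2 fold change 1.74, SE 0.16, edgeR adjusted p = 8.68e-10) and 3.75-fold higher than in AL NK cells (log2 fold change 1.91, SE 0.19, edgeR adjusted p = 4.24e-09). In FL G1-ILCs it was 2.16-fold lower than in 7R- ILC1s (log2 fold change -1.11, SE 0.16, edgeR adjusted p = 2.86e-06) and lower than in AL NK cells (log2 fold change -1.04, SE 0.19, edgeR adjusted p = 7.79e-05). No step between neighbours of the 6 middle groups passed the test, though some pairs further apart among them did. Irf7 was called in 15 of the 28 pairs of groups, where the median share of called genes was 32%. That is more pairs than those with LPL ILC1s or FL G1-ILCs. Irf7 averaged 169 ± 20.8 CPM in 7R+ ILC1s and 159 ± 15.03 CPM in 7R- ILC1s, a log2 difference of 0.09 with an interval of -0.23 to 0.40. The plasmacytoid dendritic cell markers, whose cells are rich in Irf7, summed to 164 to 200.3 CPM in LPL ILC1s, 295 to 307 CPM in SG G1-ILCs and 151 to 173 CPM in 7R+ ILC1s, and Siglech averaged 0.847 CPM in LPL ILC1s, 6.08 CPM in SG G1-ILCs and 0.107 CPM in 7R+ ILC1s. Their part in the Irf7 level was not tested.

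Irf5 (ENSMUSG00000029771, chr6:29526625-29541871, plus strand) encodes the factor that links MyD88-dependent Toll-like receptors to inflammatory cytokine genes. Of its 2905 exon bases, 411 are shared with Tnpo3 on the opposite strand, so part of its reads could belong to Tnpo3. LPL ILC1s had 118, 93.5, 80.3 and 136 CPM and SG G1-ILCs 45.1 and 54.6 CPM. 7R+ ILC1s had 54.5, 49.4 and 59.9 CPM, 7R- ILC1s 37.03, 51.9, 39.2 and 46.2 CPM and BM iILC1s 40.4, 45.6 and 52.7 CPM. The NK cell and fetal groups were lowest, with 19.3, 22.4 and 14.3 CPM in FL G1-ILCs, 16.7, 19.1 and 19.6 CPM in BM NK cells and 28.9 and 31.2 CPM in AL NK cells.

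The adult ILC1 groups thus lay above the NK cells of their own tissue without overlap. In marrow Irf5 was 2.50-fold higher in BM iILC1s than in BM NK cells (log2 fold change 1.32, SE 0.20, edgeR adjusted p = 2.85e-05). In liver it was 1.82-fold higher in 7R+ ILC1s than in AL NK cells (log2 fold change 0.87, SE 0.22, edgeR adjusted p = 0.00674), a call lost without AL NK replicate 1 (0.81, edgeR adjusted p = 0.0960), while in 7R- ILC1s the log2 difference was 0.54 (edgeR adjusted p = 0.0745). Irf5 was 1.96-fold higher in LPL ILC1s than in 7R+ ILC1s (log2 fold change 0.97, SE 0.18, edgeR adjusted p = 6.44e-05). It was 2.32-fold lower in FL G1-ILCs than in 7R- ILC1s (log2 fold change -1.21, SE 0.19, edgeR adjusted p = 9.51e-06). Irf5 is also abundant in macrophages. The myeloid markers summed to 36.7 to 69.4 CPM in LPL ILC1s and 49.9 to 62.7 CPM in 7R+ ILC1s, against 834 to 975 CPM in SG G1-ILCs and 781 to 2018 CPM in BM iILC1s, and their part in the Irf5 level was not tested.

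Irf3 (ENSMUSG00000003184, chr7:44997648-45002848, plus strand) encodes the constitutive factor that TBK1 phosphorylates downstream of RIG-I, cGAS-STING and TLR3 signals. Its level moved little. LPL ILC1s had 62.99, 81.5, 73.7 and 74.2 CPM and FL G1-ILCs 89.6, 74.2 and 94.5 CPM, against 99.9, 109 and 129.7 CPM in 7R+ ILC1s, 129, 112, 118 and 120.1 CPM in 7R- ILC1s and 128 and 111 CPM in AL NK cells. SG G1-ILCs had 84.9 and 88.7 CPM, BM iILC1s 101, 110.00 and 101 CPM and BM NK cells 110.4, 101 and 105 CPM. The gut, gland and fetal samples were lowest, and every one of them was below every sample of the remaining 5 groups.

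Irf3 was 1.55-fold lower in LPL ILC1s than in 7R+ ILC1s (log2 fold change -0.63, SE 0.11, edgeR adjusted p = 4.62e-05) and 1.39-fold lower in FL G1-ILCs than in 7R- ILC1s (log2 fold change -0.48, SE 0.11, edgeR adjusted p = 0.00129). No step between neighbouring groups in its order of means was called, although the samples of SG G1-ILCs and BM iILC1s did not overlap (edgeR adjusted p = 0.164). Between 7R+ and 7R- ILC1s the log2 difference was -0.08 (interval -0.31 to 0.15).

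Irf1 (ENSMUSG00000018899, chr11:53770014-53778374, plus strand) encodes an activator that IFN-γ induces. AL ILC1s had the highest levels, with 434, 431 and 404 CPM in 7R+ ILC1s and 474, 434, 450.5 and 478 CPM in 7R- ILC1s, against 355 and 389 CPM in AL NK cells. LPL ILC1s had the lowest, with 246, 276, 246 and 215 CPM. SG G1-ILCs had 298 and 279 CPM, FL G1-ILCs 272, 281 and 292 CPM, BM iILC1s 360.1, 388 and 339.6 CPM and BM NK cells 328, 299 and 312 CPM. Each of the 7 AL ILC1 samples exceeded every other sample.

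The gradient was shallow, and among neighbours in the order only FL G1-ILCs over LPL ILC1s was called (log2 -0.20 for LPL over FL, edgeR adjusted p = 0.0409), although their samples overlapped. Over larger steps the groups separated. Irf1 was 1.72-fold lower in LPL ILC1s than in 7R+ ILC1s (log2 fold change -0.78, SE 0.08, edgeR adjusted p = 7.83e-09) and 1.63-fold lower in FL G1-ILCs than in 7R- ILC1s (log2 fold change -0.70, SE 0.08, edgeR adjusted p = 8.96e-08). In 7R- ILC1s it was 1.23-fold higher than in AL NK cells (log2 fold change 0.30, SE 0.09, edgeR adjusted p = 0.0196), which was not called without AL NK replicate 1 (0.23, edgeR adjusted p = 0.272), without AL NK replicate 2 (0.36, edgeR adjusted p = 0.0539) or without the filter on low counts (0.31, edgeR adjusted p = 0.227). In 7R+ ILC1s the difference was 0.18 (interval -0.01 to 0.38).

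Irf2 (ENSMUSG00000031627, chr8:46739732-46847458, plus strand) encodes the factor that competes with IRF1 at shared sites and is needed for NK cell maturation. LPL ILC1s had 65.3, 46.2, 44.7 and 57.1 CPM, all below every other sample. FL G1-ILCs had 82.5, 78.4 and 87.1 CPM, SG G1-ILCs 98.1 and 100.1 CPM, BM iILC1s 116, 114 and 100.02 CPM and BM NK cells 107, 109.6 and 131 CPM. In adult liver the level was 89.5, 124 and 143 CPM in 7R+ ILC1s, 115, 127, 127 and 135 CPM in 7R- ILC1s and 133 and 129 CPM in AL NK cells, and the ranges of these 3 groups overlapped.

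Irf2 was 2.24-fold lower in LPL ILC1s than in 7R+ ILC1s (log2 fold change -1.16, SE 0.14, edgeR adjusted p = 1.11e-07) and 2.45-fold lower than in AL NK cells (log2 fold change -1.29, SE 0.15, edgeR adjusted p = 1.01e-07). It also fell below the next lowest group, FL G1-ILCs (log2 fold change -0.63, SE 0.14, edgeR adjusted p = 0.000423). FL G1-ILCs were in turn below 7R- ILC1s (log2 fold change -0.61, SE 0.14, edgeR adjusted p = 0.000735). Irf1 and Irf2, the activator and its competitor, were thus both lowest in LPL ILC1s.

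Irf9 (ENSMUSG00000002325, chr14:55603571-55610030, plus strand) encodes the DNA-binding subunit of ISGF3, the complex that type I interferon activates. Its spread within groups was large next to the differences between them, and its F value was the lowest of the 8. LPL ILC1s had 57.2, 103, 80.6 and 86.1 CPM, SG G1-ILCs 90.8 and 64.2 CPM and FL G1-ILCs 103, 82.9 and 50.9 CPM. 7R+ ILC1s had 137, 116 and 129 CPM, 7R- ILC1s 114, 114, 121 and 137 CPM and AL NK cells 126 and 112 CPM. BM iILC1s had 136, 120.02 and 104 CPM and BM NK cells 95.4, 90.3 and 95.9 CPM. The gut, gland and fetal samples were below those of all 3 adult liver groups.

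Irf9 was 1.56-fold lower in LPL ILC1s than in 7R+ ILC1s (log2 fold change -0.64, SE 0.18, edgeR adjusted p = 0.00426). It was 1.54-fold lower in FL G1-ILCs than in 7R- ILC1s (log2 fold change -0.62, SE 0.18, edgeR adjusted p = 0.00700), a call lost without FL G1-ILC replicate 4 (-0.39, edgeR adjusted p = 0.0813), the sample with the lowest value. No step between neighbouring groups in its order was called.

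**Figure D3:**
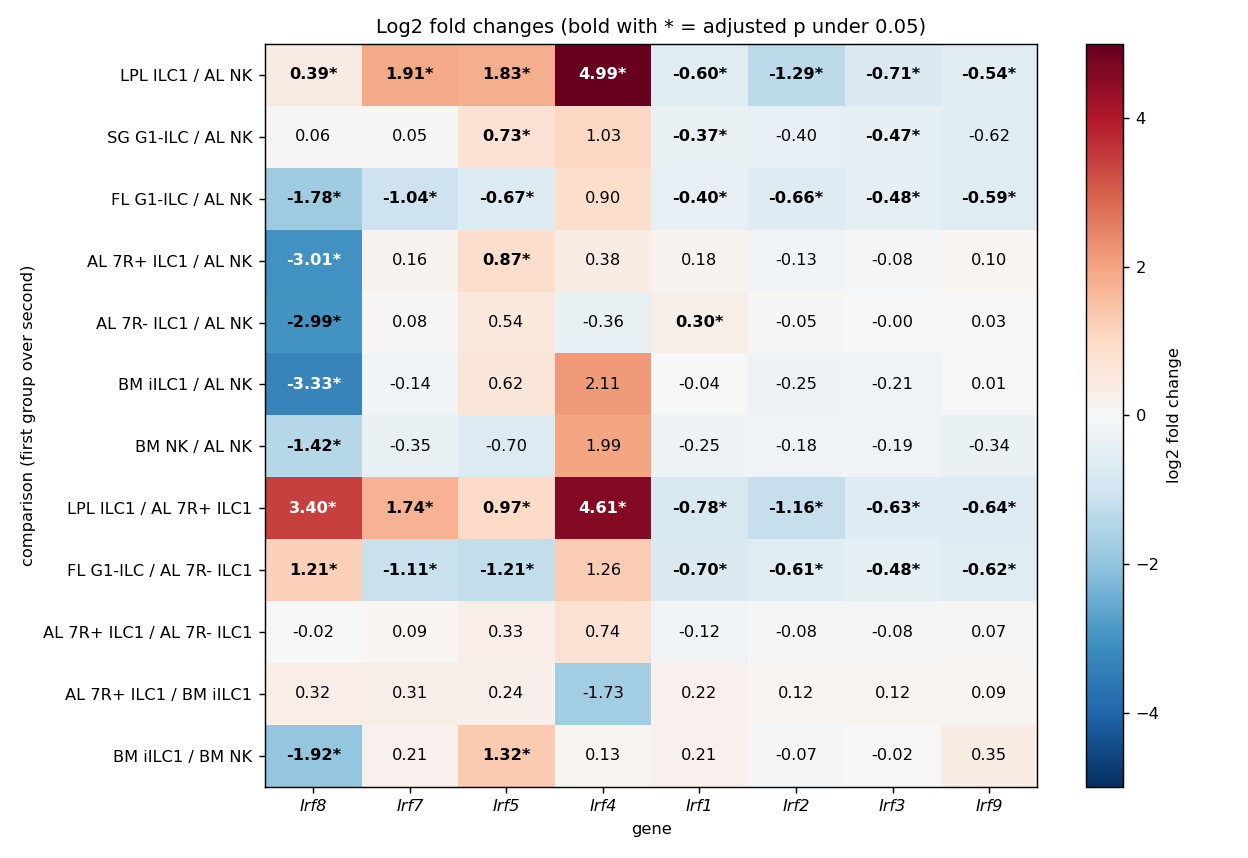
Log2 fold change of each Irf gene (columns) in the 12 comparisons (rows, the first group over the second), shown as colours and printed values, with calls at an adjusted p under 0.05 in bold with an asterisk. The LPL ILC1 rows hold 8 calls each, split 4 and 4 by direction, and the 2 rows of 7R+ ILC1s against 7R- ILC1s and BM iILC1s hold none.

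Each of the other groups was set against AL NK cells, so 7 of the 12 comparisons share the same 2 AL NK samples. LPL ILC1s against AL NK cells, which asks how far gut ILC1s stand from NK cells, had all 8 members called, 4 higher and 4 lower, where 46.7% of genes were called (22.6% higher, 24.1% lower). Irf8, Irf7, Irf5 and Irf4 were higher and Irf1, Irf2, Irf3 and Irf9 lower. The calls of Irf8, given above, and of Irf9 (log2 fold change -0.54, SE 0.20, edgeR adjusted p = 0.0301) were the weakest. Irf9 was not called without LPL ILC1 replicate 1 (-0.39, edgeR adjusted p = 0.104), without AL NK replicate 1 (-0.49, edgeR adjusted p = 0.165) or without AL NK replicate 2 (-0.65, edgeR adjusted p = 0.0526). The call was also lost with RLE size factors in place of TMM (-0.47, edgeR adjusted p = 0.0577) and with DESeq2 (-0.47, DESeq2 adjusted p = 0.0531). LPL ILC1s against 7R+ ILC1s, the gut and liver ILC1s that both carry IL-7R, gave the same split of 4 higher and 4 lower with the same genes on each side, where 51% of genes were called (24.8% higher, 26.2% lower). The median absolute log2 fold change of the 8 members was 1.06, against 0.75 over all genes. LPL ILC1s were also set against 3 further groups for the order of levels, with Irf7, Irf5 and Irf4 higher and Irf2 lower than in SG G1-ILCs (35.5% of genes called) and with Irf8 at log2 0.34 (edgeR adjusted p = 0.0606). Against FL G1-ILCs the higher members were Irf8, Irf7, Irf5 and Irf4 and the lower ones Irf1 and Irf2 (58.9% of genes called). Against BM iILC1s all 8 members were called in the same directions as against 7R+ ILC1s (50.7% of genes called).

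SG G1-ILCs against AL NK cells had 1 member higher and 2 lower, where 27% of genes were called (15.1% higher, 11.9% lower). Irf5 averaged 49.9 ± 6.69 CPM in SG G1-ILCs, against 30.02 ± 1.63 CPM in AL NK cells (log2 fold change 0.73, SE 0.24, edgeR adjusted p = 0.0247). Irf1 was lower (log2 fold change -0.37, SE 0.11, edgeR adjusted p = 0.0110), as was Irf3 (log2 fold change -0.47, SE 0.15, edgeR adjusted p = 0.0208). These 3 calls rest on 2 samples a side, and the number of members called was 0 without SG G1-ILC replicate 2, 1 without AL NK replicate 1 and 1 without AL NK replicate 2. Without the filter on low counts Irf5 (0.71, edgeR adjusted p = 0.0875), Irf1 (-0.39, edgeR adjusted p = 0.113) and Irf3 (-0.49, edgeR adjusted p = 0.162) were not called and Irf9 was (-0.64, edgeR adjusted p = 0.0263). With only these 2 groups in the fit Irf1 (-0.34, edgeR adjusted p = 0.0576) and Irf3 (-0.44, edgeR adjusted p = 0.0515) were not called and Irf9 was (-0.59, edgeR adjusted p = 0.0249). In the fit of all samples Irf9 was at log2 -0.62 (edgeR adjusted p = 0.0553).

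FL G1-ILCs against AL NK cells had 0 members higher and 7 lower, where 36.4% of genes were called (19.8% higher, 16.6% lower). The fetal cells had less of every member but Irf4, from log2 -1.78 for Irf8 and -1.04 for Irf7 to -0.40 for Irf1, and Irf4 was at 0.90 with 10 fetal reads in all. Irf3 was not called without AL NK replicate 1 (-0.37, edgeR adjusted p = 0.128), nor were Irf5 (-0.72, edgeR adjusted p = 0.0706) and Irf9 (-0.50, edgeR adjusted p = 0.206), which made 4 members called. Irf5 and Irf9 were also not called without AL NK replicate 2 (-0.61, edgeR adjusted p = 0.120 and -0.66, edgeR adjusted p = 0.0690) or without FL G1-ILC replicate 4 (-0.52, edgeR adjusted p = 0.0993 and -0.36, edgeR adjusted p = 0.179). Without the filter on low counts Irf1 (-0.36, edgeR adjusted p = 0.0717), Irf3 (-0.45, edgeR adjusted p = 0.117) and Irf5 (-0.63, edgeR adjusted p = 0.0910) were not called, and Irf9 was not after thinning to one depth (-0.53, edgeR adjusted p = 0.0509). FL G1-ILCs against 7R- ILC1s, the fetal and adult liver cells of the study's comparison of ages, had 1 member higher and 6 lower, where 42.6% of genes were called (22.4% higher, 20.1% lower). Irf8 was the only member called higher in the fetal cells. The median over the members was log2 -0.61, against -0.06 over all genes tested. FL G1-ILCs set against BM NK cells had lower Irf8, Irf7 and Irf2 (33.7% of genes called).

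7R+ ILC1s against AL NK cells had 1 member higher, Irf5, and 1 lower, Irf8, where 15.6% of genes were called (7.96% higher, 7.61% lower). 7R- ILC1s against AL NK cells had Irf1 higher and Irf8 lower, where 20.4% of genes were called (9.94% higher, 10.5% lower). BM iILC1s against AL NK cells had 1 member lower, Irf8 (log2 fold change -3.33, SE 0.15, edgeR adjusted p = 8.54e-15), and none higher, where 12% of genes were called (6.26% higher, 5.78% lower). Irf5 was at log2 0.62 there (edgeR adjusted p = 0.0700) and was called without LPL ILC1 replicate 3 (0.62, edgeR adjusted p = 0.0496), a group outside this comparison that shares the estimate of the spread. BM NK cells against AL NK cells had 1 member lower, Irf8 again, and none higher, where 2.58% of genes were called (1.01% higher, 1.57% lower). Irf8 was the only member called lower in all 4 of these comparisons. BM iILC1s against BM NK cells had Irf5 higher and Irf8 lower, where 12.1% of genes were called (6.55% higher, 5.55% lower).

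7R+ against 7R- ILC1s, the comparison at the centre of the study, had 0 members called in either direction, where 5.28% of genes were called (3.06% higher, 2.22% lower). At an unadjusted p under 0.05 the count of members was also 0, with Irf5 closest (log2 0.33, interval -0.04 to 0.69, edgeR adjusted p = 0.398), and DESeq2 called 0 members. The intervals of the 7 members other than Irf4 stayed within -0.36 and 0.69 on the log2 scale, and that of Irf4, with 7 reads in 7R+ ILC1s and 5 in 7R- ILC1s, ran from -1.52 to 3.00. 7R+ ILC1s against BM iILC1s, the other IL-7R-related pair, also had 0 members called, where 8.06% of genes were called (3.84% higher, 4.23% lower). At an unadjusted p under 0.05 the count of members was 2, Irf8 (log2 0.32, interval 0.04 to 0.60, edgeR adjusted p = 0.182) and Irf1 (log2 0.22, interval 0.04 to 0.40, edgeR adjusted p = 0.135), and DESeq2 called 0 members.

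The genes around the family were followed through 7 lists, which are described by their counts and medians. Among 21 tested genes of the type that ISGF3 induces, 2 were higher and 15 lower in LPL ILC1s than in 7R+ ILC1s, with a median log2 fold change of -1.25 against -0.02 over all genes. Over all genes tested, 24.8% were higher and 26.2% lower in that comparison. Ifit2, an interferon-induced inhibitor of viral translation, averaged 4.87 ± 3.68 CPM in LPL ILC1s and 37.7 ± 11.1 CPM in 7R+ ILC1s (log2 fold change -2.94, edgeR adjusted p = 3.28e-07). Oas3, a sensor of double-stranded RNA, averaged 7.85 ± 3.74 CPM in LPL ILC1s and 62.6 ± 9.18 CPM in 7R+ ILC1s (log2 fold change -2.98, edgeR adjusted p = 7.98e-07). Usp18, which removes ISG15 from proteins and dampens interferon receptor signalling, averaged 3.69 ± 3.93 CPM in LPL ILC1s and 36.7 ± 10.6 CPM in 7R+ ILC1s (log2 fold change -3.33, edgeR adjusted p = 4.98e-07). Isg15, the ubiquitin-like modifier, went the other way, with 93.3 ± 14.3 CPM in LPL ILC1s and 20.7 ± 3.21 CPM in 7R+ ILC1s (log2 fold change 2.16, edgeR adjusted p = 2.21e-07). Irf7, itself a gene of this type that was kept off the list, was thus higher in LPL ILC1s while 15 of the 21 listed genes were lower. The 2 higher calls became 1 without 7R+ ILC1 replicate 1 and 1 without its replicate 3.

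In FL G1-ILCs against 7R- ILC1s the ISGF3-type list had 0 genes higher by edgeR (1 without FL G1-ILC replicate 4) and 13 lower, with a median of -1.02 against -0.06 over all genes. Over all genes tested, 22.4% were higher and 20.1% lower in that comparison. Ifit1 averaged 10.9 ± 5.85 CPM in FL G1-ILCs and 49.3 ± 17.95 CPM in 7R- ILC1s (log2 fold change -2.14, edgeR adjusted p = 0.00228). Ifit2 averaged 15.7 ± 5.21 CPM in FL G1-ILCs and 36.9 ± 1.47 CPM in 7R- ILC1s (log2 fold change -1.25, edgeR adjusted p = 0.00468), and Oas3 averaged 17.3 ± 9.84 CPM in FL G1-ILCs and 38.6 ± 4.15 CPM in 7R- ILC1s (log2 fold change -1.14, edgeR adjusted p = 0.0188). Irf7 and Irf9 were lower in the same comparison. In 7R+ ILC1s against AL NK cells 7 genes of the list were higher and 0 lower, among them Rtp4 (log2 fold change 1.36, edgeR adjusted p = 0.00114) and Isg15 (log2 fold change 1.39, edgeR adjusted p = 0.00531). That count was 2 without AL NK replicate 1, 3 without AL NK replicate 2 and 4 without 7R+ ILC1 replicate 1. In 7R- ILC1s 4 genes were higher and 2 lower than in AL NK cells, a split whose higher side was 1 without AL NK replicate 1 and 2 without AL NK replicate 2, and whose lower side was 1 without 7R- ILC1 replicate 1, 2 or 3 or AL NK replicate 2. In BM iILC1s 4 were higher and 0 lower than in BM NK cells, among them Isg15 (log2 fold change 1.02, edgeR adjusted p = 0.0427) and Bst2 (log2 fold change 0.78, edgeR adjusted p = 0.00325), and the count of 4 ranged from 1 to 5 as single libraries were left out, with 1 without BM NK replicate 2 and 2 without BM NK replicate 1 or BM iILC1 replicate 1 or 3. Of all genes tested, 7.96% were higher and 7.61% lower in 7R+ ILC1s than in AL NK cells, and 9.94% and 10.5% in 7R- ILC1s. Between BM iILC1s and BM NK cells 6.55% were higher and 5.55% lower. The list medians were 0.59 for 7R+ ILC1s, 0.25 for 7R- ILC1s and 0.43 for BM iILC1s, each beside a median near 0 over all genes.

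Of 26 tested genes of the type that IFN-γ and IRF1 induce, 14 were higher and 1 lower in 7R+ ILC1s than in AL NK cells, with a median of 0.62, and 17 were higher and 3 lower in 7R- ILC1s, with a median of 0.62 too, where the median over all genes was near 0 in both. Over all genes tested 7.96% were higher and 7.61% lower in 7R+ ILC1s, and 9.94% and 10.5% in 7R- ILC1s. Tgtp1, an interferon-inducible GTPase, averaged 88.7 ± 5.85 CPM in 7R+ ILC1s and 5.52 ± 1.69 CPM in AL NK cells (log2 fold change 4.02, edgeR adjusted p = 1.26e-11), and Irgm2, another, averaged 130.3 ± 12.1 CPM in 7R- ILC1s and 38.9 ± 6.03 CPM in AL NK cells (log2 fold change 1.75, edgeR adjusted p = 1.25e-07). Tgtp1 belongs to a multigene family, so its reads could be split between copies. Gbp3 was lower, with 15.9 ± 8.11 CPM in 7R- ILC1s and 53.3 ± 1.44 CPM in AL NK cells (log2 fold change -1.72, edgeR adjusted p = 4.97e-05). Without AL NK replicate 1 the higher counts were 8 for 7R+ ILC1s and 11 for 7R- ILC1s, and the lower count for 7R- ILC1s was 1 without AL NK replicate 2. The 1 lower call for 7R+ ILC1s, Gbp3, was lost without 7R+ ILC1 replicate 2 or 3 or either AL NK replicate. In marrow 11 of the 26 were higher and 0 lower in BM iILC1s than in BM NK cells, where 6.55% of all genes were higher and 5.55% lower. The higher genes included Igtp, Cd274 and Tgtp1, the last with 66.7 ± 4.58 CPM in BM iILC1s and 7.46 ± 1.34 CPM in BM NK cells (log2 fold change 3.16, edgeR adjusted p = 3.20e-11). Irf1 itself differed by at most log2 0.30 in these 3 comparisons.

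In fetal and gut cells the direction of this list differed between the 2 groups they were set against. In FL G1-ILCs 2 genes were higher and 14 lower than in 7R- ILC1s, with a median of -0.73 against -0.06 over all genes. Against AL NK cells 10 were higher and 6 lower in FL G1-ILCs, with a median of 0.34 against 0.03 over all genes. Over all genes tested, 22.4% were higher and 20.1% lower in FL G1-ILCs than in 7R- ILC1s. Against AL NK cells these shares were 19.8% and 16.6%. Casp1, the inflammasome protease, averaged 7.43 ± 4.15 CPM in FL G1-ILCs and 64.7 ± 9.56 CPM in 7R- ILC1s (log2 fold change -3.06, edgeR adjusted p = 5.10e-11), whereas the inhibitor of cytokine signalling Socs1 averaged 257 ± 25.8 CPM in FL G1-ILCs and 194 ± 5.09 CPM in 7R- ILC1s (log2 fold change 0.41, edgeR adjusted p = 0.00410). In LPL ILC1s against 7R+ ILC1s 5 were higher and 10 lower (3 and 16 without the filter on low counts), with a median of -0.26 against -0.02 over all genes. Against AL NK cells 12 were higher and 2 lower in LPL ILC1s, with a median of 0.31 and one near 0 over all genes, and the higher count was 8 to 14 when single samples were left out. Over all genes tested, 24.8% were higher and 26.2% lower in LPL ILC1s than in 7R+ ILC1s. Against AL NK cells these shares were 22.6% and 24.1%. Cd274, which encodes PD-L1, averaged 509 ± 33.99 CPM in LPL ILC1s and 63.9 ± 10.04 CPM in 7R+ ILC1s (log2 fold change 3.00, edgeR adjusted p = 7.43e-14). Irgm1 averaged 25.5 ± 16.9 CPM in LPL ILC1s and 151 ± 6.31 CPM in 7R+ ILC1s (log2 fold change -2.57, edgeR adjusted p = 2.74e-09), and Nlrc5, the activator of MHC class I genes, 119.6 ± 15.6 CPM in LPL ILC1s and 248 ± 24.7 CPM in 7R+ ILC1s (log2 fold change -1.05, edgeR adjusted p = 1.45e-08). The 5 higher calls became 3 without 7R+ ILC1 replicate 3. Irf1 was lower in all 4 of these comparisons. The immediate-early sums given above stand beside each LPL result, and their part was not tested.

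**Figure D4:**
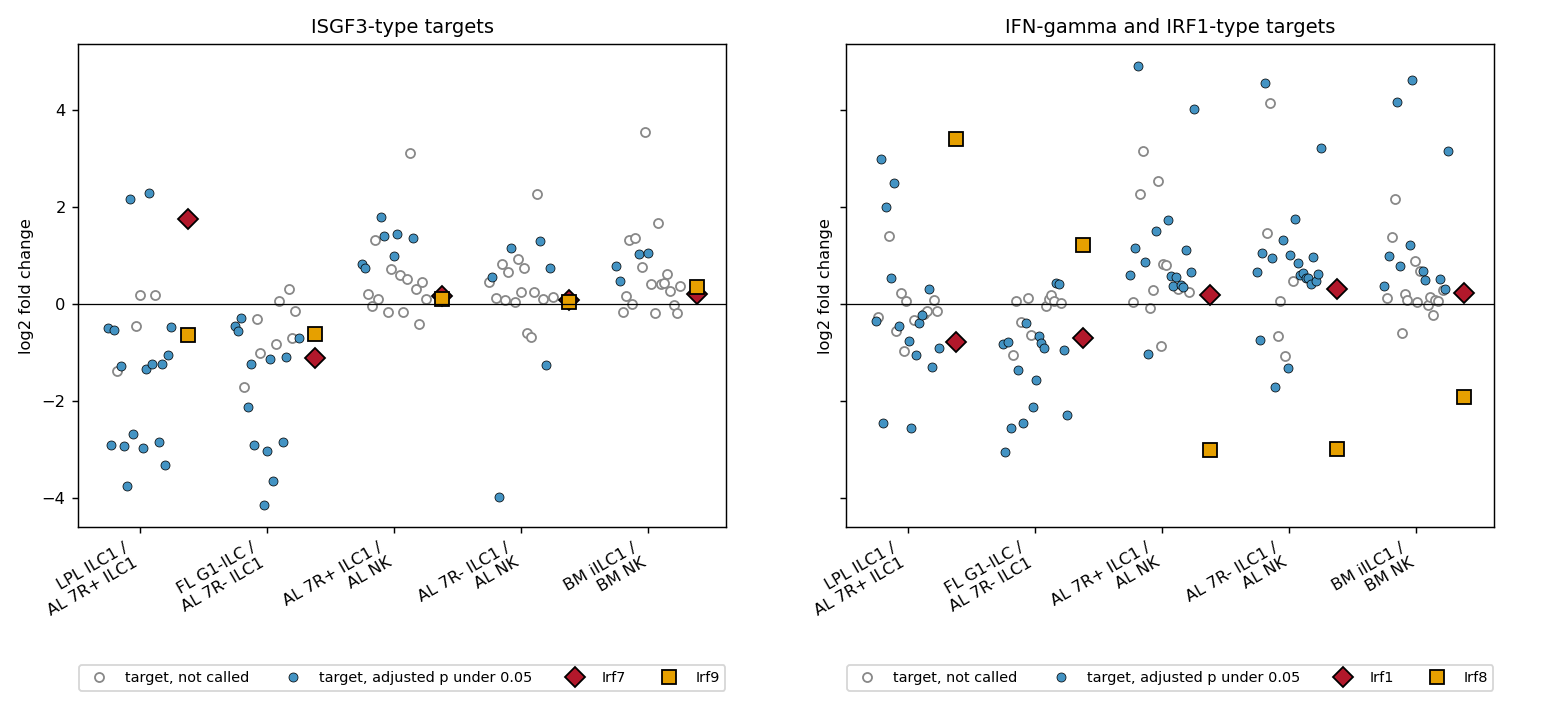
Log2 fold change (y axis) of each tested gene of the ISGF3-type list (left) and of the IFN-γ and IRF1-type list (right) in 5 comparisons (first group over second), filled where the adjusted p is under 0.05, beside the Irf genes drawn as diamonds and squares. In LPL over 7R+ ILC1s 15 of 21 ISGF3-type genes lie below 0 as calls while Irf7 lies at 1.74, and in AL ILC1s over AL NK cells 14 and 17 of 26 IFN-γ-type genes are called above 0 while Irf8 lies near -3.

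Upstream of the family, 4 of 9 interferon receptor chains, kinases and STATs were higher and 3 lower in LPL ILC1s than in 7R+ ILC1s, with a median log2 fold change of 0.20, where 51% of all genes were called with a median of -0.02. Ifngr1, the ligand-binding chain of the IFN-γ receptor, averaged 5309.6 ± 456 CPM in LPL ILC1s and 990.5 ± 148 CPM in 7R+ ILC1s (log2 fold change 2.42, edgeR adjusted p = 6.05e-17), and its kinase Jak2 669 ± 72.9 CPM in LPL ILC1s and 141 ± 33.2 CPM in 7R+ ILC1s (log2 fold change 2.25, edgeR adjusted p = 2.53e-12). Stat2, an ISGF3 subunit, was lower, with 45.6 ± 8.84 CPM in LPL ILC1s and 93.4 ± 5.35 CPM in 7R+ ILC1s (log2 fold change -1.03, edgeR adjusted p = 1.58e-06). In FL G1-ILCs 1 of the 9 was higher and 6 lower than in 7R- ILC1s, with a median of -0.52, where 42.6% of all genes were called with a median of -0.06, and with Stat2 at 44.03 ± 4.89 CPM in FL G1-ILCs and 76.4 ± 8.20 CPM in 7R- ILC1s (log2 fold change -0.79, edgeR adjusted p = 9.08e-05). Between 7R+ and 7R- ILC1s 1 of the 9 was called, Ifngr1, with 990.5 ± 148 CPM in 7R+ ILC1s and 588 ± 19.02 CPM in 7R- ILC1s (log2 fold change 0.75, edgeR adjusted p = 2.17e-06). Of 20 tested sensors and activators of IRF3, IRF5 and IRF7, 3 were higher and 8 lower in LPL ILC1s than in 7R+ ILC1s (median -0.27), with the kinase Tbk1 higher (log2 0.94) and the adaptor Mavs lower (log2 -1.66). In FL G1-ILCs 2 were higher and 6 lower than in 7R- ILC1s (median -0.32), with the DNA sensor Cgas higher (log2 1.34) and the RNA sensor Ifih1 lower (log2 -1.97), and the higher count was 1 without 7R- ILC1 replicate 2, 3 or 4 or without any 1 of the 3 FL samples.

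Of 13 tested partners of the IRFs, 7 were higher and 4 lower in LPL ILC1s than in 7R+ ILC1s, with a median of 0.81, where 24.8% of all genes were higher and 26.2% lower. The AP-1 genes Junb and Jun, whose proteins bind with IRF4, IRF8 and BATF at composite sites, averaged 11991 ± 729.5 CPM and 1076 ± 55.1 CPM in LPL ILC1s, against 155 ± 10.1 CPM and 31.2 ± 3.21 CPM in 7R+ ILC1s. Both are also in the immediate-early list. Ikzf1, which encodes Ikaros, was lower (log2 fold change -2.20, edgeR adjusted p = 2.00e-14), as were the IRF2 corepressor genes Irf2bpl (log2 fold change -2.71, edgeR adjusted p = 3.83e-12) and Irf2bp1 (log2 fold change -1.79, edgeR adjusted p = 1.41e-08). Jun and Ets1 were the partners called between the AL ILC1 subsets. Jun had 31.2 ± 3.21 CPM in 7R+ ILC1s and 116 ± 15.7 CPM in 7R- ILC1s (log2 fold change -1.89, edgeR adjusted p = 1.73e-09), and Ets1 was higher in 7R+ ILC1s (log2 fold change 0.45, edgeR adjusted p = 0.00464). Of 12 genes that restrain the family or its signals, 4 were higher and 5 lower in LPL ILC1s than in 7R+ ILC1s (median -0.22), with Socs3 at log2 4.26 and Trim21 at log2 -2.85. Of 13 lymphoid genes linked to IRF4 and IRF8, 9 were higher and 3 lower in that comparison (median 0.94), with Myc at 2144 ± 288 CPM in LPL ILC1s and 171 ± 10.5 CPM in 7R+ ILC1s (log2 fold change 3.65, edgeR adjusted p = 1.00e-17) and with Zfp683, which encodes Hobit, at 12.3 ± 3.15 CPM in LPL ILC1s and 154 ± 9.82 CPM in 7R+ ILC1s (log2 fold change -3.63, edgeR adjusted p = 3.03e-15). In 7R+ ILC1s against AL NK cells, where Irf8 was lower, Eomes of the same list averaged 2.25 ± 2.99 CPM in 7R+ ILC1s and 472 ± 6.71 CPM in AL NK cells (log2 fold change -7.37, edgeR adjusted p = 4.21e-11), and Zfp683 154 ± 9.82 CPM in 7R+ ILC1s and 1.17 ± 0.379 CPM in AL NK cells (log2 fold change 7.05, edgeR adjusted p = 4.88e-15).

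Between 7R+ and 7R- ILC1s, where 0 Irf genes were called, 10 genes of the 7 lists were, and 5.28% of all genes tested. The lists held 9, 20, 13, 21, 26, 12 and 13 tested genes. The median log2 fold change was 0.26 in the ISGF3-type list and 0.07 in the IFN-γ and IRF1-type list, and near 0 over all genes. Besides Ifngr1, Jun and Ets1, given above, the IFN-γ and IRF1-type list had 3 genes higher and 0 lower, namely Tgtp1 with 88.7 ± 5.85 CPM in 7R+ ILC1s and 50.9 ± 6.63 CPM in 7R- ILC1s (log2 fold change 0.80, edgeR adjusted p = 0.00444), Casp1 (log2 fold change 0.78, edgeR adjusted p = 0.00863) and the GTPase gene Iigp1 (log2 fold change 3.61, edgeR adjusted p = 0.00576). In the ISGF3-type list Ifi44 was higher, at 4.34 ± 2.28 CPM in 7R+ ILC1s and 0.285 ± 0.324 CPM in 7R- ILC1s (log2 fold change 3.96, edgeR adjusted p = 0.00406). Iigp1 and Ifi44, with means of at most 16.3 CPM, were added after their values were seen because the counts are small. Socs3, which inhibits JAK signalling, was higher (log2 fold change 1.53, edgeR adjusted p = 0.000463), as was Myc (log2 fold change 0.85, edgeR adjusted p = 3.34e-05), while Prdm1, which encodes Blimp-1, was lower (log2 fold change -0.82, edgeR adjusted p = 0.00328). None of the 20 tested sensors and activators was called by edgeR (1 without 7R+ ILC1 replicate 1), and when single samples were left out the count of 3 in the IFN-γ and IRF1-type list ranged from 2 to 4 and none of the other counts became smaller.

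Correlations of log2 CPM over the 24 samples describe how the members moved beside each other. The samples share groups, libraries and depth, so these values carry no test. Irf5 and Irf7 had r = 0.87, and Irf1, Irf2 and Irf3 had 0.76 to 0.85 with each other. Irf8 ran against Irf1 (r = -0.75), and Irf4 against Irf2 (r = -0.79). Over all other genes considered (about 8057, with average log2 CPM of at least 4), the closest patterns to Irf8 were those of Sh2d2a (r = 0.92), Nr4a2 (0.90) and Zfand5 (0.90), of which Nr4a2 is an immediate-early gene. The closest to Irf7 were Prr13 (0.97), H2-Q6 (0.96, a member of a multigene family with uncertain reads) and Mul1 (0.96), and to Irf5 Bcl2a1d (0.96), Gm49339 (0.96) and Aup1 (0.95). Irf1 and Irf3 shared Uckl1 as the closest gene (0.93 for each), followed for Irf1 by Gimap8 and Kmt2a (0.93 for each) and for Irf3 by Cln3 (0.91) and Mylip (0.90). Irf2 was closest to Ptger1 (0.95), 3110056K07Rik (0.93) and Rasa1 (0.93), and Irf4 to Ing3 (0.89), Med11 (0.89) and Tbc1d15 (0.88). Irf9 had the weakest neighbours, with B4galnt1, Stat2 and Oas3 at 0.81 each.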

How the data were processed

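cDNA was made from sorted cells with a SMART-seq HT kit. The authors deposited 1 table of raw counts per Ensembl gene for the 25 libraries, and the submitters' processing notes name fastp 0.23.0, HISAT2 2.1.0, featureCounts of Subread 1.6.5 and mm10. The annotation release and the strand and multimapping settings are not given in the sources used here. Of 46078 genes, 45229 matched GENCODE vM21, and the other 849 held 0.104% of counts. FL G1-ILC replicates 2 and 3 were summed. Genes were kept with filterByExpr (minimum count of 10), scaled with TMM and fitted across the 8 groups with edgeR 4.0.16 (glmQLFit and glmQLFTest, with limma 3.58.1 in R 4.3.3), which left 16 residual degrees of freedom, and p-values were adjusted over 14123 genes. Log2 CPM used a prior count of 2. Symbols and positions (GRCm38) follow GENCODE and promoter windows RefSeq.

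The members and lists were chosen with earlier results of these data known. All 8 members are named with the value in every sample. The list genes named come from the up to 3 called genes per list, comparison and direction with the largest change and an average log2 CPM of at least 4, and the 3 genes most correlated with each member are named. The alternatives were RLE size factors, no filter or a stricter one, other thresholds, the replicate block, all 25 libraries, thinning to 3752189 counts, fits of only the groups compared, DESeq2 1.42.0 and leaving out each sample. Some list members and marker genes are not reported here. The scripts were tested on simulated data.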

Additional observations from a re-analysis of the deposited data

Results flagged for a closer look

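One result stood out because the difference between ILC1s and NK cells had different sizes in 2 tissues. The log2 fold change of Irf8 between ILC1s and NK cells was -1.92 in marrow (BM iILC1s over BM NK cells) and -3.01 in liver (7R+ ILC1s over AL NK cells), and the difference of marrow minus liver was 1.0954 (SE 0.20, edgeR adjusted p = 0.00104). It ranged from 0.85 to 1.29 when single samples were left out. The 2 pairs share no samples, and this contrast was chosen after seeing the data. The ILC1s were not alike, being immature in marrow and 7R+ in liver. Irf8 was not called between these ILC1s (log2 0.32 for 7R+ ILC1s over BM iILC1s, edgeR adjusted p = 0.182). It was called between the NK cells (log2 -1.42 for BM over AL NK cells, edgeR adjusted p = 9.34e-07). Of 16 gene and group sets with 4 samples, 0 held a sample that lay apart from the others by Dixon's test at its 95% critical value, where chance gives about 1 in 20.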

How the results depend on the processing

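Across 96 log2 fold changes of the 8 genes in 12 comparisons, 3062 alternative values were computed. Of these, 3011 kept their side of the threshold, 39 lost a call and 12 gained one. Among the 3011, 45 changed sign while not called, and 0 called values changed sign. Of 440 alternative counts of members called, 22 moved by over 1.5 times. At an adjusted p under 0.01, SG G1-ILCs against AL NK cells had 0 members called in place of 3, and 7R- ILC1s against AL NK cells 1 in place of 2. With an absolute log2 fold change of at least 1 also required, the counts were 4 for LPL ILC1s against AL NK cells and 4 against 7R+ ILC1s (8 without it), 0 for SG G1-ILCs against AL NK cells, 2 for FL G1-ILCs against AL NK cells and 3 against 7R- ILC1s (7 without it), and 1 each for 7R+ and 7R- ILC1s against AL NK cells. With no filter on low counts they were 1 for SG G1-ILCs, 4 for FL G1-ILCs and 1 for 7R- ILC1s, each against AL NK cells. BM iILC1s against AL NK cells had 2 members called after thinning and 2 with DESeq2, in place of 1. The tighter thresholds act by construction, and for the others the cause was not tested. When each sample was left out, the counts against AL NK cells ran from 6 to 8 for LPL ILC1s, 0 to 4 for SG G1-ILCs, 4 to 7 for FL G1-ILCs, 1 to 2 for 7R+ ILC1s, 1 to 2 for 7R- ILC1s and 1 to 2 for BM iILC1s, and from 6 to 7 for FL G1-ILCs against 7R- ILC1s. The other 6 counts did not change. Of 1768 alternative counts over the lists, which were added after seeing the data, 89 moved by over 1.5 times. Irf4 rests on 228 reads in all, and the 2 samples each of SG G1-ILCs and AL NK cells limit every comparison that uses them.

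No pairing of samples by replicate number was seen over the genes tested. Deviations from the group means correlated at -0.00619 on average between samples with the same number and at 0.00236 between different numbers, and 3 of 24 samples correlated best with their own number. With so few samples a group, this check cannot exclude that groups shared mice or a day of sorting. A replicate block gave 8 members called among all groups, 7, 3, 6, 2, 2, 1 and 1 in the 7 comparisons with AL NK cells in the order used above (LPL, SG, FL, 7R+, 7R-, BM iILC1, BM NK), 8 for LPL ILC1s against 7R+ ILC1s, 7 for FL G1-ILCs against 7R- ILC1s, 0 for 7R+ ILC1s against 7R- ILC1s and against BM iILC1s, and 2 for BM iILC1s against BM NK cells. The calls of Irf9 in LPL ILC1s (-0.48, edgeR adjusted p = 0.0804) and FL G1-ILCs (-0.56, edgeR adjusted p = 0.0578) against AL NK cells were lost under the block.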
